A study of Mus musculus with 6 samples.

Results

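The enzymes that add palmitate to proteins and remove it were examined in primary mouse renal fibroblasts, grown by themselves or below Th17 cells. Members were taken by symbol. All rows named Zdhhc followed by a number were included (24 palmitoyltransferases), together with the thioesterases Ppt1, Ppt2, Lypla1, Lypla2, Abhd10, Abhd17a, Abhd17b and Abhd17c (8 genes) and the transferase partner Golga7, giving 33 of the 34745 genes in the table. The alone group held 3 RNA-seq libraries of WT fibroblasts with no treatment, grown from trypsin and collagenase digests of kidney. The coculture group held 3 libraries of WT fibroblasts kept for 24 h under an insert that carried Th17 cells polarised from CD4+ T cells. Its 0.4 µm pores let medium through but kept the cells apart. Separate animals or cultures behind the libraries of a group are stated in no source used here, so the p-values measure the spread between these libraries, which may be technical.

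S-palmitoylation joins a long acyl chain to a cysteine through a thioester bond, which anchors the protein to a membrane and, unlike most lipid modifications, can be reversed. Zdhhc enzymes are polytopic membrane proteins whose DHHC cysteine first takes the acyl group from palmitoyl-CoA and then passes it to the substrate. Protein thioesterases hydrolyse the bond. Of the genes grouped here as thioesterases, the Lypla and Abhd17 enzymes lie at the cytosolic face of membranes, Ppt1 and Ppt2 in the lysosome and Abhd10 in mitochondria. They were grouped by symbol, and the activity of each on palmitoylated proteins was not examined. The study followed Zdhhc14 in kidney tissue and tubular cells as the palmitoyltransferase of the transcription factor TEAD4. It also depleted and overexpressed Zdhhc1 and Zdhhc21, and reported that neither changed the palmitoylation of TEAD4. The fibroblast libraries allow the whole enzyme family to be read beside these enzymes.

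The codons of the catalytic motif are shown for the 5 transferases that passed the test with Th17 and for Zdhhc14, because this short stretch is what makes them 1 family. Each line gives the bases of the GENCODE vM21 transcript with the longest coding sequence, 5′ to 3′, with the 12 bases of the motif in capitals and 15 bases on either side.
Zdhhc2: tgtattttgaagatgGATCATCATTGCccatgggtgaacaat
Zdhhc15: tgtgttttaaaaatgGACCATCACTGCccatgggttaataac
Zdhhc7: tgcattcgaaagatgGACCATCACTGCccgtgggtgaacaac
Zdhhc16: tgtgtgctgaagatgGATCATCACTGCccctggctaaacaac
Zdhhc6: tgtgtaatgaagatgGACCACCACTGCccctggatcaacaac
Zdhhc14: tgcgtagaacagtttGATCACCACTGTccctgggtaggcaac
On GRCm38 the capitals lie within coding exons, at chr8:40456679-40456690 (+ strand, exon 6) for Zdhhc2, chrX:104572510-104572521 (- strand, exon 6) for Zdhhc15, chr8:120085402-120085413 (- strand, exon 5) for Zdhhc7, chr19:41938824-41938835 (+ strand, exon 6) for Zdhhc16, chr19:55311757-55311768 (- strand, exon 4) for Zdhhc6 and chr17:5712396-5712407 (+ strand, exon 4) for Zdhhc14. In all 24 Zdhhc genes 1 such motif was found, on a single exon. The 23 genes with the standard motif encoded it with 11 different codon strings, and 14 of the 24 ended it with TGC and 10 with TGT. Zdhhc13, a transferase with ankyrin repeats, carried the codon CAG for glutamine in place of the first histidine codon. The motif cysteine was at codon 111 to 467 of coding sequences 263 to 762 codons long.

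Of the 33 members, 28 had enough counts to be tested. Zdhhc19, Zdhhc22, Zdhhc23 and Zdhhc25 had 0 counts in all 6 libraries, and Zdhhc11 had 2 counts in alone replicate 2 and 0 elsewhere. A count of 0 allows up to 3 counts, which is 0.223 to 0.254 CPM in these libraries (CPM is the count scaled to the library total after TMM adjustment). The library totals were 12050529 to 13209581 counts, and the members took 0.121% to 0.140% of them. Levels were compared between genes on 2 scales that divide by length, namely the authors' FPKM (fragments scaled to gene length and library total) and CPM per kilobase of merged GENCODE exons. The lengths implied by the FPKM values differed from merged exon lengths by a factor of 0.276 (Zdhhc6) to 2.89 (Zdhhc24), so an order of genes was read only where both scales gave it.

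In fibroblasts alone, Zdhhc5 had the highest level of all members, at 37.8 ± 2.06 FPKM (SD, n = 3) and 43.4 CPM per kb. Zdhhc5 is a plasma membrane transferase and made up 21.4% of the summed Zdhhc FPKM. Zdhhc20 ranked 4 on both scales, at 20.7 ± 1.17 FPKM and 15.2 CPM per kb. Among thioesterases Ppt1 was highest, at 17.2 ± 1.83 FPKM and 27.4 CPM per kb, and Abhd10 was lowest, at 1.58 ± 0.444 FPKM and 2.23 CPM per kb. Zdhhc14 was at 5.22 ± 0.331 FPKM and 5.40 CPM per kb, ranked 19 and 20 of the members, and gave 2.95% of the summed Zdhhc FPKM. The place of Zdhhc6, an endoplasmic reticulum transferase, depended on the scale, since it ranked 5 by FPKM and 19 by CPM per kb. Golga7 ranked 2 by FPKM and 7 by CPM per kb.

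**Figure D1:**
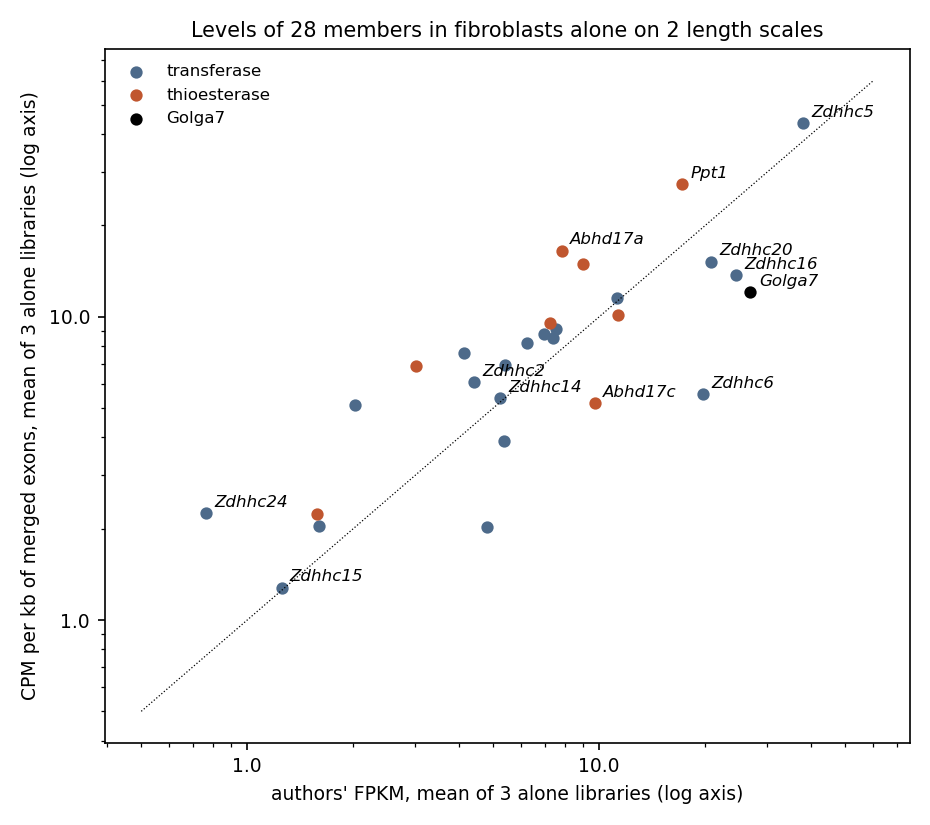
Level of the 28 tested members in fibroblasts alone, as the mean of 3 libraries, with the authors' FPKM on the horizontal log axis and CPM per kilobase of merged exons on the vertical log axis. The dotted line marks equal values, Zdhhc5 lies at the top on both scales, and Zdhhc6 and Golga7 lie well below the line.

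The comparison asked which of these genes changed when fibroblasts shared medium with Th17 cells. No library is described as having an insert without Th17 cells, or other T cells in the insert. Effects of the Th17 cells, the insert and the medium added with them therefore cannot be told apart. Counts were fitted with edgeR over all 13088 genes that passed its filter on low counts, and a gene was called at an adjusted p below 0.05. With Th17, 4 members were higher (Abhd17c, Zdhhc2, Ppt1 and Golga7) and 4 were lower (Zdhhc15, Zdhhc7, Zdhhc16 and Zdhhc6). Each count is 14.3% of the 28 tested, while 17.1% of all genes tested were called higher and 20.0% lower, so neither count sets the members apart from genes at large. Without alone replicate 1, the number lower was 2 (Zdhhc15 and Zdhhc16). The median log2 fold change was 0.06 in the members and 0.00 in all genes tested, and the median size of a change was 0.22 and 0.26 on the log2 scale. By class, 1 of 19 tested transferases was higher and 4 were lower, and 2 of 8 thioesterases were higher and 0 lower. At an unadjusted p below 0.05, edgeR, DESeq2 and limma also gave 0 thioesterases lower. A difference between the classes was not tested. Bulk RNA cannot tell fewer cells of a type from less RNA per cell, and this holds for each gene below.

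**Figure D2:**
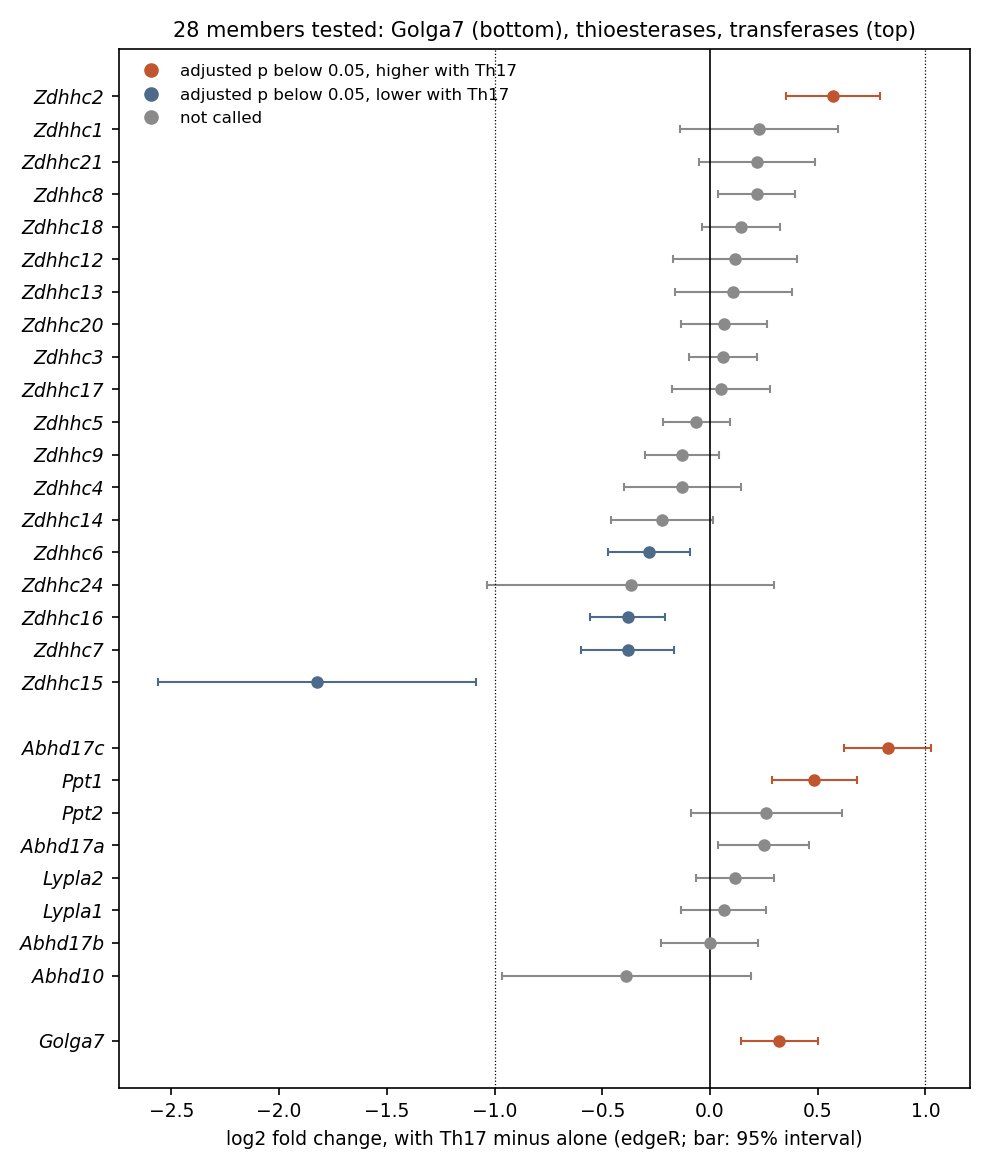
Log2 fold change with Th17 minus alone from the edgeR fit for the 28 tested members, with the 95% interval as a bar and dotted lines at a fold change of 2 in either direction. Zdhhc15 alone lies beyond a dotted line with its whole interval, and Abhd17c is the highest point.

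Zdhhc2, a transferase of synaptic and signalling proteins, was the only transferase called higher. Its counts were 480, 381 and 398 in the alone libraries and 713, 602 and 654 with Th17. All 3 coculture libraries were above all 3 alone libraries. CPM rose from 33.7 ± 3.58 to 50.0 ± 2.87 (SD, n = 3 each), a log2 fold change of 0.57 (SE 0.0964, adjusted p = 0.00152 by edgeR). Exons of Zdhhc2 share 247 of 5528 bases with Cnot7 on the opposite strand, and Cnot7 itself had a log2 fold change of -0.08 (adjusted p = 0.607 by edgeR).

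Zdhhc15, the nearest relative of Zdhhc2 in the family, went the other way. It had 93, 95 and 76 counts alone and 37, 30 and 11 with Th17. The groups did not overlap, and coculture replicate 3 was far below the other two. CPM fell from 7.05 ± 0.559 to 1.98 ± 1.01, a log2 fold change of -1.83 (SE 0.326, adjusted p = 0.00209 by edgeR). This was the only member past both an adjusted p of 0.05 and a fold change of 2, the threshold named in the study's methods, against 11.6% of all genes tested. With limma on log2(FPKM + 1), which understates changes of low genes, its log2 fold change was -0.73 and it did not pass the fold change of 2. Zdhhc15 was among the tested members of low level, at 1.25 FPKM and 1.28 CPM per kb alone, and made up 0.708% of the summed Zdhhc FPKM. Some markers of minor cell types with like counts moved beside it, among them Adgre1 of macrophages (71, 47 and 55 counts alone, 0 in each coculture library) and Kdr of endothelium (65, 74 and 68 counts alone, 2, 1 and 2 with Th17), both named after their values were seen. The endothelial marker Pecam1 did not (20, 8 and 18 counts alone, 19, 18 and 15 with Th17). The part of such markers in the fall of Zdhhc15 was not tested.

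Zdhhc7, a Golgi transferase, had 402, 389 and 337 counts alone and 291, 288 and 330 with Th17. Scaled to library size the groups did not overlap, and CPM fell from 30.1 ± 1.45 to 23.1 ± 1.79 (log2 fold change -0.38, SE 0.0949, adjusted p = 0.0117 by edgeR). Without alone replicate 1 the adjusted p was 0.0505. Its close relative Zdhhc3, which shares many substrates with it, was at 94.8 ± 2.03 and 98.9 ± 6.62 CPM, with a log2 fold change of 0.06 (95% interval -0.10 to 0.22).

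Zdhhc16 and Zdhhc6 both act in the endoplasmic reticulum, where Zdhhc16 is known to palmitoylate Zdhhc6. Zdhhc16 had 580, 556 and 570 counts alone and 473, 462 and 444 with Th17, so every coculture library was lower. Its CPM fell from 45.7 ± 2.22 to 35.1 ± 1.26 (log2 fold change -0.38, SE 0.0774, adjusted p = 0.00421 by edgeR). Zdhhc16 shares 959 of 3336 exon bases with Mms19 on the opposite strand, whose own log2 fold change was -0.05 (adjusted p = 0.626 by edgeR). Zdhhc6 had 576, 629 and 513 counts alone and 530, 484 and 470 with Th17. These raw counts overlapped but the scaled values did not, at 45.9 ± 3.33 and 37.7 ± 1.84 CPM (log2 fold change -0.28, SE 0.0844, adjusted p = 0.0268 by edgeR). The call for Zdhhc6 was lost with library size scaling (adjusted p = 0.0634) and when alone replicate 1 (0.0533), alone replicate 2 (0.112), coculture replicate 2 (0.0569) or coculture replicate 3 (0.0584) was left out. Selk, the selenoprotein partner of Zdhhc6, had a log2 fold change of -0.21 (SE 0.0963, adjusted p = 0.125 by edgeR).

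The 3 palmitoyltransferases that the study depleted and overexpressed were not called. Zdhhc14 had 199, 217 and 204 counts alone and 187, 188 and 184 with Th17. Its scaled levels did not overlap, at 16.6 ± 1.01 and 14.2 ± 0.474 CPM, and the log2 fold change was -0.22 (SE 0.105, 95% interval -0.46 to 0.01, adjusted p = 0.127 by edgeR). This interval holds for the edgeR fit with TMM scaling only. Over the 15 alternative fits the log2 fold change of Zdhhc14 was -0.28 to -0.13. Zdhhc1 had 110, 100 and 108 counts alone and 159, 104 and 130 with Th17, with overlapping groups and a log2 fold change of 0.23 (SE 0.162, adjusted p = 0.309 by edgeR) that was 0.086 without coculture replicate 1. Zdhhc21 had 374, 285 and 328 counts alone and 423, 353 and 433 with Th17, also overlapping, with a log2 fold change of 0.22 (SE 0.119, adjusted p = 0.186 by edgeR) that was 0.12 without alone replicate 2.

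**Figure D3:**
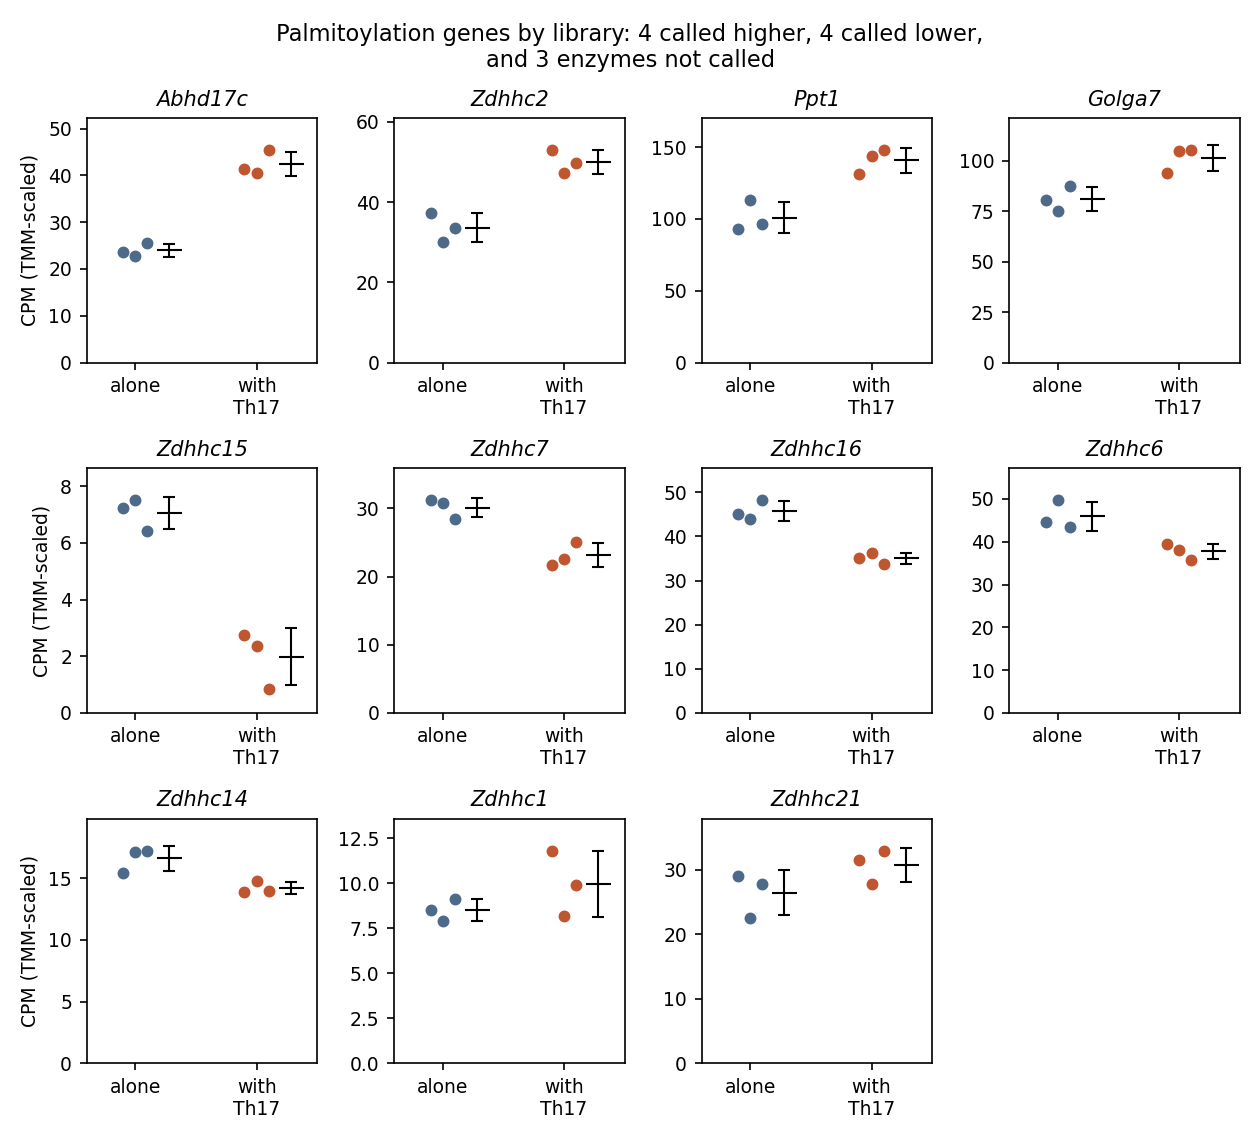
CPM scaled by TMM library sizes for the 4 members called higher, the 4 called lower, and Zdhhc14, Zdhhc1 and Zdhhc21, with 1 point a library and the mean ± SD beside the points. The groups are separate in the first 9 panels and overlap for Zdhhc1 and Zdhhc21.

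The remaining 11 tested transferases had log2 fold changes from -0.37 (Zdhhc24) to 0.22 (Zdhhc8). Zdhhc8, the plasma membrane relative of Zdhhc5, came nearest to a call, with 678, 713 and 696 counts alone and 856, 884 and 813 with Th17 (log2 fold change 0.22, adjusted p = 0.0584 by edgeR). Zdhhc5 itself, the most abundant member, was at 219 ± 11.2 and 210 ± 12.7 CPM, a log2 fold change of -0.06 with a 95% interval of -0.22 to 0.09. Zdhhc9 and Zdhhc18, which with Zdhhc14 form 1 branch of the family, had log2 fold changes of -0.13 and 0.14. Of the 20 tested members that were not called, 19 had a 95% interval within a fold change of 2 in both directions. The exception was Zdhhc24 (-1.04 to 0.30), whose counts alone were 123, 65 and 60 and whose log2 fold change was -0.0012 without alone replicate 1.

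Abhd17c, a membrane-associated hydrolase of the group that depalmitoylates Ras proteins, had the largest rise among the members. Its counts were 304, 288 and 302 alone and 557, 515 and 597 with Th17. The spread within each group was small beside the gap between them. CPM rose from 24.0 ± 1.43 to 42.4 ± 2.63, 1.77-fold (log2 fold change 0.82, SE 0.0890, adjusted p = 1.0e-04 by edgeR). Of its paralogs, Abhd17a had 300, 348 and 307 counts alone and 409, 399 and 388 with Th17 (log2 fold change 0.25, adjusted p = 0.0633 by edgeR). Abhd17b stayed within its spread, at 28.7 ± 1.41 and 28.6 ± 2.80 CPM, with a 95% interval of the log2 fold change from -0.23 to 0.22.

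Ppt1, the lysosomal thioesterase whose loss causes infantile neuronal ceroid lipofuscinosis, had 1197, 1430 and 1140 counts alone and 1766, 1830 and 1946 with Th17. No alone library reached the coculture range. CPM rose from 101 ± 10.7 to 141 ± 8.69 (log2 fold change 0.49, SE 0.0876, adjusted p = 0.00222 by edgeR). Ppt1 shares 129 of 3674 exon bases with Cap1 on the opposite strand, and Cap1 was also higher (log2 fold change 0.29, adjusted p = 0.00425 by edgeR). Ppt2, its lysosomal relative, had a log2 fold change of 0.26 (adjusted p = 0.221 by edgeR) and 0.08 without coculture replicate 2, and 957 of its 2614 exon bases lie in Gm20460 on the same strand.

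Lypla1 and Lypla2, the cytosolic acyl protein thioesterases APT1 and APT2, were not called. Lypla1 was at 68.3 ± 3.80 CPM alone and 71.4 ± 6.71 with Th17 (95% interval of the log2 fold change -0.13 to 0.26). Lypla2, the target of the depalmitoylation inhibitor ML349 that the study used in tubular cells, was at 30.8 ± 0.505 and 33.3 ± 1.34 CPM (95% interval -0.06 to 0.30). The mitochondrial Abhd10 had a log2 fold change of -0.39 with a wide interval of -0.97 to 0.19, and -0.62 without coculture replicate 3.

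Golga7, the subunit that stabilises Zdhhc9 and also binds Zdhhc5, had 1037, 952 and 1033 counts alone and 1265, 1331 and 1384 with Th17. All coculture libraries were higher, and CPM rose from 81.0 ± 6.08 to 101 ± 6.28 (log2 fold change 0.32, SE 0.0796, adjusted p = 0.0115 by edgeR). Golga7 shares 401 of 6726 exon bases with Gm45412 on the opposite strand, for which no fold change is given here. Scaled levels did not overlap between the groups in 12 of the 28 members tested (42.9%), against 50.4% of all genes tested.

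To compare the classes as a whole, the authors' FPKM values were summed in each library. The Zdhhc sum was 176, 173 and 182 FPKM alone and 182, 175 and 176 with Th17, and these values overlapped (177 ± 4.25 and 178 ± 3.73, two-sided exact permutation p = 0.7). The thioesterase sum was 64.9, 67.8 and 67.8 FPKM alone and 84.4, 86.4 and 92.5 with Th17. Here the groups were apart, at 66.9 ± 1.69 and 87.8 ± 4.21, 1.31 times as high with Th17 (two-sided exact permutation p = 0.1, the smallest that 3 against 3 libraries can give). The ratio of the Zdhhc to the thioesterase sum was 2.71, 2.56 and 2.68 alone and 2.16, 2.03 and 1.91 with Th17, and the means were 2.65 ± 0.0821 and 2.03 ± 0.126 (exact permutation p = 0.1, again the smallest possible). It is a ratio of transcript sums and not of enzyme activity. Without Ppt1 and Abhd17c, the called thioesterases, the thioesterase sum was 1.12 times as high with Th17 and the ratio of sums 0.900 times, an alternative chosen after the data were seen. On CPM per kilobase of merged exons, which carries the TMM scaling, the corresponding values for all members were 1.22 and 0.806. The sums without Ppt1 and Abhd17c were made on FPKM only, which carries no TMM factor.

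**Figure D4:**
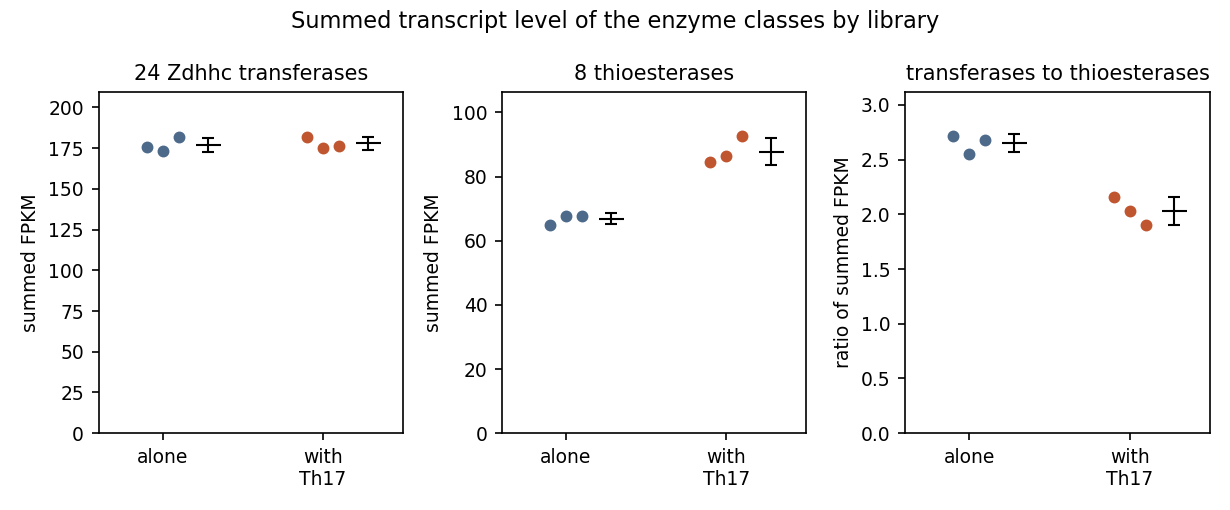
Summed FPKM of the 24 Zdhhc transferases, summed FPKM of the 8 thioesterases and the ratio of these sums, with 1 point a library and the mean ± SD beside the points. The transferase sums of the groups overlap, the thioesterase sums lie higher in all 3 coculture libraries, and the ratios lie lower.

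Ratios of counts between related genes do not depend on library scaling, and 12 pairs were compared that were chosen for relatedness or known binding, after the data were seen. The ratio of Zdhhc2 to Zdhhc15 was 5.16, 4.01 and 5.24 alone and 19.3, 20.1 and 59.5 with Th17. The value of 59.5 came from coculture replicate 3, with 11 Zdhhc15 counts. The ratio of Zdhhc3 to Zdhhc7 went from 3.15 ± 0.178 to 4.31 ± 0.599, and that of Zdhhc5 to Zdhhc8 from 3.92 ± 0.0686 to 3.23 ± 0.114. The ratio of Abhd17c to Abhd17b went from 0.836 ± 0.0319 to 1.49 ± 0.0878. Golga7 went from 1.37 ± 0.0437 to 1.88 ± 0.186 counts for each count of Zdhhc9. The groups did not overlap in 7 of the 12 pairs, these 5 among them. Zdhhc18 to Zdhhc14 (2.78 ± 0.345 and 3.57 ± 0.235) and Golga7 to Zdhhc5 (0.370 ± 0.0197 and 0.485 ± 0.0502) did not overlap either. In these 7 the two-sided exact permutation p was 0.1, the smallest possible, or 0.171 adjusted over the 12 pairs. No share over other gene pairs was computed, and 50.4% of all single genes tested did not overlap. Zdhhc2 and Zdhhc15 had already been called in opposite directions. Zdhhc7, Abhd17c and Golga7 had also been called, so the separation of pairs that hold a called gene is not separate evidence. Zdhhc5 to Zdhhc8 and Zdhhc18 to Zdhhc14 hold no called gene. The ratio of Lypla1 to Lypla2, at 2.22 ± 0.125 and 2.14 ± 0.165, overlapped (exact permutation p = 0.7, adjusted 0.764).

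**Figure D5:**
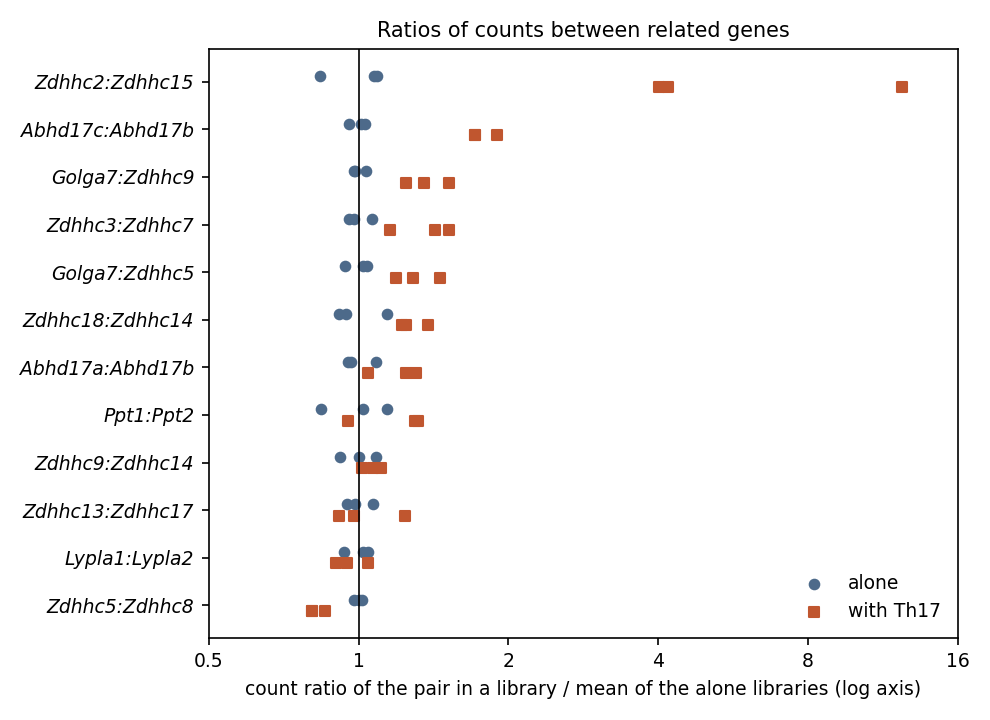
Ratio of counts for 12 pairs of related genes in each library, divided by the mean ratio of the 3 alone libraries, on a log axis, with circles for alone and squares for coculture. Zdhhc2 to Zdhhc15 moves farthest, with 1 coculture library far to the right of the other two.

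Genes that supply the acyl chain, assist the enzymes or carry palmitate were read from lists. Of 18 tested genes of palmitate and acyl-CoA supply, 5 were higher (27.8%, against 17.1% of all genes tested) and 2 lower (11.1%, against 20.0%). These shares were not tested against other genes and are not matched for level. Cpt1a, which moves long acyl chains into mitochondria, had 818, 843 and 838 counts alone and 1397, 1341 and 1158 with Th17 (log2 fold change 0.57, SE 0.0869, adjusted p = 8.81e-04 by edgeR). Fasn, the synthase of palmitate, was higher by 0.44 on the log2 scale (adjusted p = 0.0014 by edgeR) and Acsl5, an acyl-CoA ligase, was lower by 0.21 (log2 fold change -0.21, adjusted p = 0.0316 by edgeR). Among 4 tested partners and related hydrolases, 0 were higher (also 0 at an unadjusted p below 0.05 with edgeR, DESeq2 and limma) and 1 was lower, namely Abhd16a (log2 fold change -0.37, adjusted p = 0.00895 by edgeR), and Golga7b was at 0 counts. Neither Hhat nor Porcn, the lipid transferases of Hedgehog and Wnt proteins, was called (adjusted p = 0.15 and 0.913 by edgeR).

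Of the 4 TEAD transcription factors, which bind palmitate, only Tead4 was called. It had 17, 40 and 14 counts alone and 77, 103 and 96 with Th17 (log2 fold change 1.89, SE 0.336, adjusted p = 0.00207 by edgeR). Its mean was under 100 counts in both groups, and it is named here after its values were seen. Among 29 tested proteins known to be S-palmitoylated, 9 were higher (31.0%, against 17.1% of all genes tested) and 10 lower (34.5%, against 20.0%), and the groups did not overlap in 21 (72.4%, against 50.4%). No test of the list against other genes was made, and the shares are not matched for level. Several listed genes had high counts and small errors, such as Ckap4 (SE 0.0543, against a median of 0.120 over all genes tested). Others had larger errors, such as Cav1 (SE 0.370). The list was chosen with earlier results of these data known. Flot1, a membrane scaffold, was at 323, 269 and 272 counts alone and 496, 500 and 511 with Th17 (log2 fold change 0.73, adjusted p = 2.56e-04 by edgeR). Il6st, the signalling receptor of interleukin-6 family cytokines, had a log2 fold change of 0.68 (adjusted p = 1.26e-04 by edgeR). Sdc4, a heparan sulfate proteoglycan, fell from 3651, 3341 and 3104 to 1373, 1336 and 1541 counts (log2 fold change -1.32, adjusted p = 1.11e-06 by edgeR). Cav1, the caveolar coat protein, had 996, 402 and 402 counts alone and 311, 160 and 162 with Th17 (log2 fold change -1.57, adjusted p = 0.00904 by edgeR).

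The cell type was checked against marker genes. The 7 fibroblast markers were at 29712 to 31572 summed CPM alone and 13391 to 14879 with Th17, with 6 lower and Dcn higher. The fall in this sum was mainly in Col1a1, whose mean went from 15072 to 6228 CPM, and Col1a2, from 12462 to 4621 CPM. Mean CPM went from 2048 to 1425 for Vim, 357 to 247 for Thy1, 250 to 197 for Pdgfrb and 179 to 141 for Pdgfra. The mean of Dcn rose from 504 to 1427 CPM. The 7 macrophage markers summed to 46.7 to 48.5 CPM alone and 8.14 to 10.3 CPM with Th17, and the 4 that could be tested were lower. C1qa, C1qb and Itgam had 15 counts or fewer in every library. The 5 endothelium markers summed to 6.79 to 7.52 and 1.60 to 2.75 CPM, with Emcn at 0 throughout. That fall was mainly in Kdr, whose mean went from 5.55 to 0.126 CPM, while Pecam1 was at 1.24 and 1.32 CPM, Tek at 0.215 and 0.615 CPM and Cdh5 at 0.233 and 0.104 CPM. The 6 tubular epithelium markers summed to 1.40 to 2.69 and 0.837 to 1.18 CPM. The summed levels moved with the groups, and their part in the members' changes was not tested. The 11 T cell markers summed to 5.82 to 8.69 CPM alone and 4.79 to 5.58 CPM with Th17, and of the 2 that could be tested Lck was lower and Trac was not called. The markers Cd3d, Cd8a, Il17a, Il17f and Cd2 were at 0 in all 6 libraries.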

How the data were processed

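RNA was sequenced from 6 libraries. Per the study's methods, reads were filtered with Seqtk, aligned with HISAT2 and counted with StringTie. The submitters' processing notes give HISAT2 2.0.4, StringTie 1.3.3b and build mm10. The authors deposited raw counts per gene and, beside them, FPKM values. The annotation release, the use of strand and the handling of fragments that fit several genes are not given in the sources used here, so overlapping and related genes are uncertain. From the deposited FPKM values an implied gene length was computed in 10934 genes with at least 30 counts in each library. It was constant across libraries in 100% of them (within 1%), so FPKM carries no TMM factor. It lay within 10% of the merged exon length of GENCODE vM21 in 18.9%, and within 10% of the summed length of distinct exons over all transcripts in 73.8%.

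Counts were fitted in R 4.3.3 with edgeR 4.0.16 (filterByExpr, minimum count 10, TMM scaling, glmQLFit and glmQLFTest, group as the only term), with Benjamini-Hochberg adjustment over 13088 genes. The biological coefficient of variation was 11.6%. CPM used TMM library sizes. Intervals and count limits cover counting error and the spread between libraries only. Replicate libraries of a group differed beyond sampling noise (lowest chi-square per degree of freedom 6.58), so each was counted. Alternatives used DESeq2 1.42.0 and limma 3.58.1. Fits with edgeR, DESeq2 and limma were tried on simulated data, but not every alternative setting was. No outcome of that trial is reported here. Sums and ratios were tested by exact permutation, and figures were drawn with matplotlib 3.10.9. Full statistics are given for members with an adjusted p below 0.05 and for Zdhhc14, Zdhhc1 and Zdhhc21. From each related list the 2 highest and 2 lowest called genes are named, provided that the group with the higher level averaged 100 counts or more. Cell type markers are given by list, and single markers were named after their values were seen. The members and lists were chosen with earlier results of these data known. No count or FPKM column was left unassigned.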

Additional observations from a re-analysis of the deposited data

How the results depend on the processing

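Of 15 alternative fits, none changed the direction of the 8 called members, and Abhd17c, Zdhhc2, Ppt1, Golga7, Zdhhc15 and Zdhhc16 kept their calls in all of them. The number of members lower was 2 without alone replicate 1 (2 to 4 over the fits that left out 1 library), and the number higher was 4 to 6. With limma on log2(FPKM + 1), 0 members passed the fold change of 2, at any p, with Zdhhc15 at a log2 fold change of -0.73 (-2.14 to -0.73 over all fits). DESeq2 gave 1, as edgeR did. Scaling by library size alone gave a median log2 fold change of 0.13, against 0.02 to 0.11 when 1 library was left out. It moved the share of higher calls among all genes called from 46.2% to 56.1%. Zdhhc8 was called with library size scaling (adjusted p = 0.0193), both limma fits and without coculture replicate 3. Abhd17a was called with library size scaling (adjusted p = 0.0252) and both limma fits. The limma fits ran on FPKM, which carries no TMM factor, so they share the library size scaling. Their share of higher calls among all genes called was 55.8% at a pseudocount of 1 and 55.6% at 0.1. Zdhhc14 was not called in any fit (adjusted p from 0.122 to 0.308).

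Directions changed only in members near 0. Abhd17b had 0.0014 with relative log expression factors, 0.0627 with library size, 0.0058 with upper quartile factors, 0.00060 with no filter, 0.0044 with at least 10 counts in every library, 0.0015 with DESeq2, 0.0544 and 0.0583 with limma at pseudocounts of 1 and 0.1, and -0.0767 to 0.0634 when 1 library was left out (0.0356 without alone replicate 3, 0.0113 without coculture replicate 2). Zdhhc20 (-0.0076, up to 0.148 when another library was left out) and Zdhhc17 (-0.0340, up to 0.109) turned without coculture replicate 3, and Zdhhc13 (-0.0064, up to 0.203) without coculture replicate 1. The summed Zdhhc level was 0.985 times that alone on TMM-scaled counts per kilobase and 0.993 to 1.02 times when 1 library was left out. The cause of these changes was not tested. Without Ppt1, its most abundant member, the thioesterase sum was 1.26 times that alone. Without both Zdhhc5 and Ppt1, the most abundant of each class, the ratio was 0.799 times that alone. Without the lysosomal and mitochondrial members, the thioesterase sum was 1.28 times and the ratio 0.787 times that alone. The choice to leave out the lysosomal and mitochondrial members was made after the data were seen.

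No pairing by replicate number was visible, since deviations of same-numbered libraries correlated at 0.016, -0.026 and -0.0036. Whether same-numbered libraries shared an animal, digest or batch cannot be told from these values. A fit with the replicate block gave 4 members higher and 4 lower, 1 past the fold change and a median log2 fold change of 0.06. Over all genes the block gave 2053 higher and 2460 lower, against 2244 and 2612 without it.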

Other observations

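Notum, which removes the lipid from Wnt proteins, had 0, 0 and 0 counts alone and 0, 3 and 3 with Th17, too few to test. The acyl-CoA ligase Acsl6 had 10, 12 and 9 counts alone and 46, 38 and 26 with Th17, and the fatty acid translocase Cd36 had 36, 38 and 17 counts alone and 6, 0 and 3 with Th17. Both had an edgeR adjusted p below 0.05 (0.00213 and 0.00235) and means under 100 counts, and both are named after their values were seen.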
